A study of Vitis x labruscana x Vitis vinifera with 36 samples.

Results

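The plastid methylerythritol phosphate (MEP) pathway was followed through 6 genes in berries of the table grape 'Shine Muscat'. The genes were chosen by identifier from the 30661 rows of the count table: VIT_05s0020g02130 (DXS1), VIT_11s0052g01730 and VIT_04s0008g04970 (the other DXS genes), VIT_17s0000g08390 (DXR), VIT_06s0004g02900 (HDS) and VIT_03s0063g02030 (HDR). The enzyme names come with that list, the table pairs no identifier with a name, and no annotation was used, so the assignment was not checked here.

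The plastids of plant cells build isopentenyl diphosphate and its isomer dimethylallyl diphosphate through the MEP pathway, from pyruvate and glyceraldehyde phosphate. Its products feed monoterpenes, carotenoids, the phytol tail of chlorophyll and gibberellins. Deoxyxylulose phosphate synthase (DXS) makes the first intermediate and is widely treated as a control point of the flux, and deoxyxylulose phosphate reductoisomerase (DXR) makes methylerythritol phosphate from it. Hydroxymethylbutenyl diphosphate synthase (HDS) and its reductase (HDR) carry out the last steps, and HDR releases both end products. In grape, the floral muscat aroma rests on monoterpene alcohols such as linalool, geraniol and nerol, and DXS1 is the gene best known for its place at the main muscat aroma locus. Read counts per gene do not tell its alleles apart.

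'Shine Muscat' is a hybrid of Vitis labruscana Bailey × Vitis vinifera L., and all libraries came from this cultivar. Treated berries labelled seedless were set against untreated berries labelled seeded, in both berry tissues, flesh and skin, and at 3 stages numbered 1, 3 and 4. The 36 libraries fall into 12 groups of 3. The sources used here name neither the agent of the treatment nor its dose or the dates of sampling, and stage 2 was not analysed here. The study set transcript profiles beside the volatile compounds of the same kind of berries, and the volatile measurements were not analysed here.

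Libraries were made with Lasy-seq, which indexes RNA during reverse transcription and reads mostly transcript 3′ ends. Library totals lay between 0.609 and 7.34 M counts (M, mega). The seeded stage 1 libraries were the shallowest on average, with 0.609 to 1.25 M in flesh and 1.12 to 2.38 M in skin, against means of 3.47 to 6.35 M in the other groups. Replicates of those 2 groups also correlated less, at Pearson's r of 0.883 to 0.953 on log2(CPM + 1) against at least 0.966 in the other 10 groups. Tissue labels could not be checked against marker genes, because no identifier could be tied to a marker. In whole tissue, fewer cells of a type and less RNA per cell cannot be told apart. Levels are given as CPM, the reads of a gene relative to a library total scaled by the trimmed mean of M-values (TMM), and they are not compared between genes, since 3′ reads per gene are not per length.

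**Figure D1:**
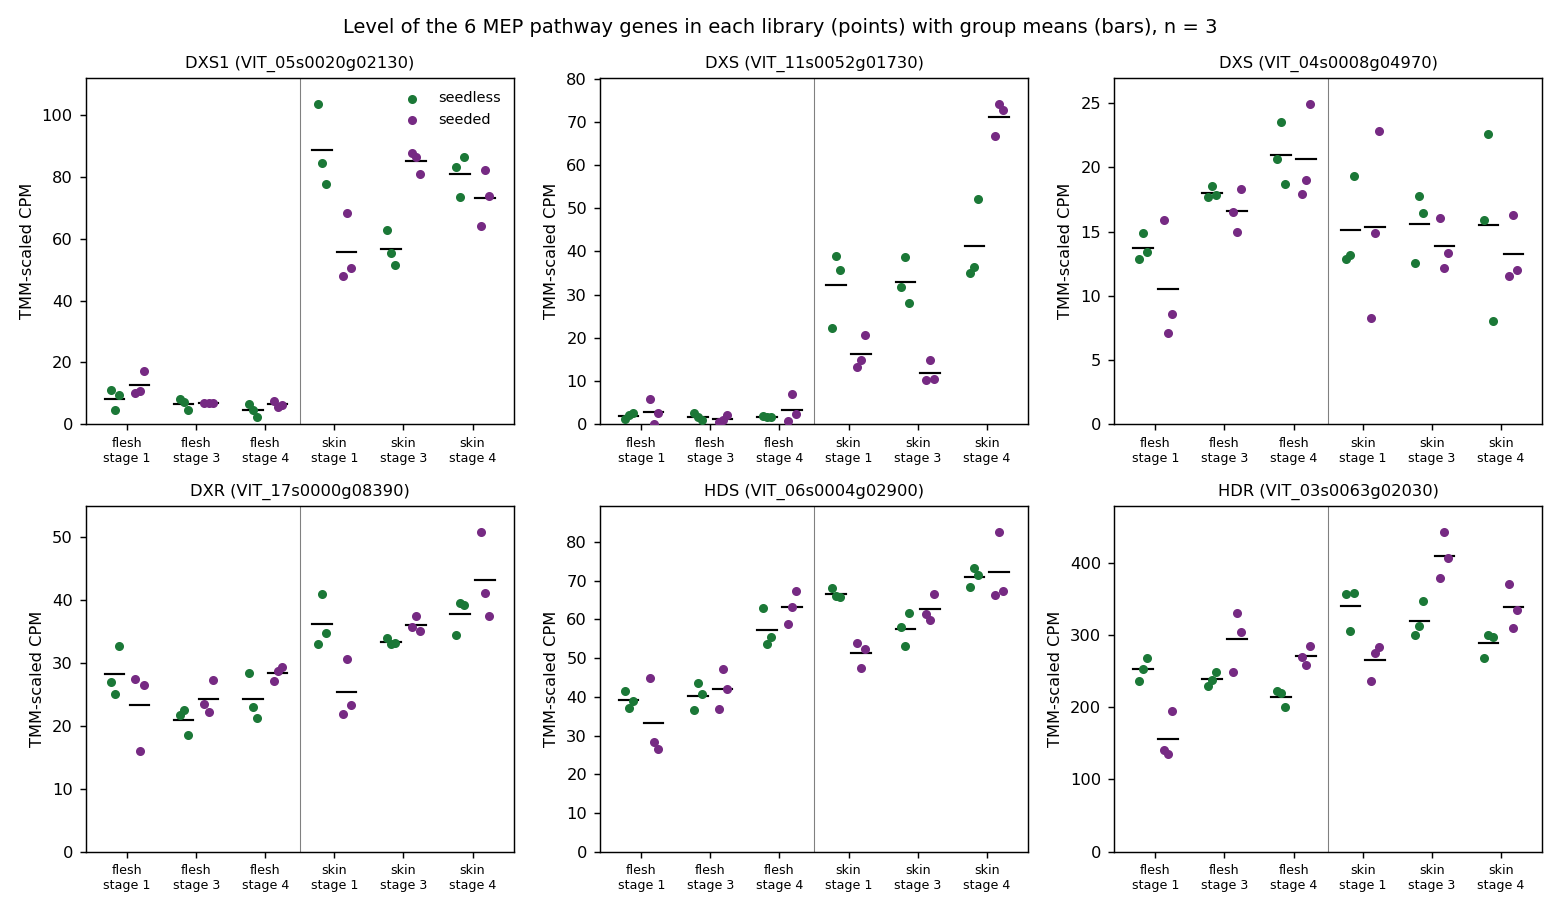
Level of each of the 6 genes in every library, in TMM-scaled CPM on a linear axis that starts at 0 and differs between panels. Points are libraries, bars are means of 3, green is seedless, purple is seeded, and the grey line separates flesh from skin. DXS1 and VIT_11s0052g01730 lie higher in every skin library than in any flesh library, while VIT_04s0008g04970 spans 7.10 to 24.9 CPM with both tissues mixed.

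Skin and flesh were compared first. Averaged over the treatments, DXS1 and VIT_11s0052g01730 were higher in skin by 6.63 to 23.5 times, and HDS and HDR by 1.19 to 1.64 times. VIT_04s0008g04970 was lower in skin at stage 4. Within treatments at stage 1, mean CPM of DXS1 was 10.8 times higher in skin in seedless and 4.41 times in seeded berries. For VIT_11s0052g01730 these ratios were 17.0 and 5.85. Of the 6 genes, 4 differed between the tissues at stage 1, all higher in skin, 5 at stage 3, all higher in skin, and 6 at stage 4, of which 5 were higher and 1 lower. Differences are called at an adjusted p under 0.05. Among the 14841 genes tested, 35.4% differed at stage 1, 40.1% at stage 3 and 41.3% at stage 4, and 20.1%, 22.7% and 23.3% were higher in skin. The median log2 difference of the 6 genes was 0.65, 0.58 and 0.50 at the 3 stages, against 0.019, 0.0086 and 0.0032 over all tested genes.

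DXS1 had low levels in every flesh library and several times higher levels in skin. In flesh its levels in seedless berries were 10.9, 4.44 and 9.28 CPM at stage 1, 8.18, 7.03 and 4.67 CPM at stage 3 and 6.46, 4.49 and 2.25 CPM at stage 4. In flesh of seeded berries they were 10.1, 10.7 and 17.1 CPM at stage 1, 6.88, 6.84 and 6.82 CPM at stage 3 and 7.30, 5.68 and 6.01 CPM at stage 4. These 18 flesh values rest on 6 to 53 reads each, so differences among the flesh groups are weakly resolved. In skin the seedless libraries had 104, 84.7 and 77.9 CPM at stage 1, 62.9, 55.4 and 51.7 CPM at stage 3 and 83.1, 73.5 and 86.6 CPM at stage 4. Skin of seeded berries gave 48.1, 68.4 and 50.6 CPM at stage 1, 87.7, 86.6 and 81.0 CPM at stage 3 and 64.2, 82.2 and 73.8 CPM at stage 4. No skin library overlapped with any flesh library. Averaged over the treatments, skin exceeded flesh at stage 1 by 2.73 ± 0.18 log2 units (SE; 6.63 times; edgeR adjusted p = 8.85e-20). At stage 3 the excess was 3.37 ± 0.15 (10.3 times; edgeR adjusted p = 6.09e-27), and at stage 4 it was 3.89 ± 0.16 (14.8 times; edgeR adjusted p = 3.12e-29).

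The second DXS gene, VIT_11s0052g01730, had few reads in flesh and many more in skin. Flesh of seedless berries had 1.15, 2.09 and 2.46 CPM at stage 1, 2.53, 1.59 and 0.991 CPM at stage 3 and 1.81, 1.68 and 1.73 CPM at stage 4. Flesh of seeded berries had 5.78, 0 and 2.57 CPM at stage 1, 0.509, 0.978 and 2.15 CPM at stage 3 and 0.707, 7.01 and 2.23 CPM at stage 4. The library at 0 could hold up to 5.33 CPM by a limit of 3 counts, which covers counting error only, and no flesh library had more than 21 reads of the gene. Skin of seedless berries had 22.2, 38.9 and 35.7 CPM at stage 1, 31.8, 38.6 and 28.1 CPM at stage 3 and 35.1, 36.4 and 52.2 CPM at stage 4. Skin of seeded berries had 13.3, 14.9 and 20.7 CPM at stage 1, 10.2, 14.9 and 10.5 CPM at stage 3 and 66.8, 74.1 and 72.7 CPM at stage 4. All 18 skin values lay above all 18 flesh values. Skin exceeded flesh by 3.27 ± 0.35 log2 units (SE; 9.62 times; edgeR adjusted p = 6.86e-11) at stage 1, by 3.83 ± 0.29 (14.2 times; edgeR adjusted p = 1.36e-15) at stage 3 and by 4.56 ± 0.25 (23.5 times; edgeR adjusted p = 9.24e-21) at stage 4.

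The third DXS gene, VIT_04s0008g04970, overlapped between the tissues at every stage. Within a treatment and stage, the tissues were apart only in seeded berries at stage 4, with means of 13.3 CPM in skin and 20.6 CPM in flesh. Its seedless flesh levels were 12.9, 14.9 and 13.4 CPM at stage 1, 17.7, 18.6 and 17.8 CPM at stage 3 and 20.7, 23.6 and 18.7 CPM at stage 4. Seeded flesh had 15.9, 7.10 and 8.56 CPM, then 16.6, 14.99 and 18.3 CPM, then 17.9, 19.0 and 24.9 CPM at the same stages. The flesh means thus ran from 10.5 to 21.0 CPM, with both stage 4 flesh groups at the top of the order over all 12 groups. Seedless skin had 12.9, 13.2 and 19.3 CPM at stage 1, 12.6, 17.8 and 16.5 CPM at stage 3 and 15.9, 22.6 and 8.01 CPM at stage 4. Seeded skin had 8.24, 14.9 and 22.9 CPM, then 16.1, 12.1 and 13.3 CPM, then 11.5, 16.3 and 11.97 CPM. Every pair of neighbours in the order of its 12 group means overlapped. Skin minus flesh was 0.34 ± 0.25 log2 units (SE; edgeR adjusted p = 0.289) at stage 1. It was -0.23 ± 0.18 (edgeR adjusted p = 0.329) at stage 3, and skin was lower by 0.53 ± 0.18 at stage 4 (log2 difference -0.53, edgeR adjusted p = 0.0135). That call was lost without replicate 3 of every group (log2 difference -0.31, edgeR adjusted p = 0.279) and at an equal depth of 608901 counts per library (edgeR adjusted p = 0.116).

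DXR showed a modest skin excess that was called at stages 3 and 4. Flesh of seedless berries had 26.9, 25.1 and 32.8 CPM at stage 1, 21.8, 22.6 and 18.5 CPM at stage 3 and 28.4, 23.0 and 21.3 CPM at stage 4, and flesh of seeded berries had 27.5, 15.98 and 26.5 CPM, then 23.4, 22.2 and 27.3 CPM, then 27.1, 28.7 and 29.4 CPM. Skin of seedless berries had 33.0, 41.0 and 34.9 CPM, then 34.0, 33.0 and 33.2 CPM, then 34.5, 39.5 and 39.3 CPM. Skin of seeded berries had 22.0, 30.7 and 23.4 CPM, then 35.7, 37.6 and 35.1 CPM, then 50.9, 41.1 and 37.5 CPM. Seeded skin at stage 1 was the 1 skin group that overlapped with flesh of the same treatment and stage. Skin minus flesh was 0.20 ± 0.15 log2 units (SE; edgeR adjusted p = 0.324) at stage 1, 0.62 ± 0.12 (1.54 times; edgeR adjusted p = 1.66e-05) at stage 3 and 0.62 ± 0.12 (1.53 times; edgeR adjusted p = 1.45e-05) at stage 4.

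HDS and HDR, the enzymes of the last steps, were higher in skin at every stage. HDS in seedless flesh had 41.5, 37.1 and 39.0 CPM at stage 1, 36.6, 43.5 and 40.8 CPM at stage 3 and 63.0, 53.7 and 55.4 CPM at stage 4, and in seeded flesh 44.8, 28.4 and 26.5 CPM, then 36.9, 47.3 and 42.0 CPM, then 58.9, 63.1 and 67.2 CPM. In seedless skin it had 68.1, 66.0 and 65.9 CPM, then 57.9, 53.1 and 61.7 CPM, then 68.3, 73.3 and 71.6 CPM, and in seeded skin 54.0, 47.6 and 52.2 CPM, then 61.4, 59.7 and 66.7 CPM, then 66.4, 82.7 and 67.5 CPM. The tissues overlapped for HDS at stage 4, in seeded berries. Its skin excess was 0.72 ± 0.12 log2 units (SE; 1.64 times; edgeR adjusted p = 1.35e-06) at stage 1, 0.55 ± 0.10 (edgeR adjusted p = 4.35e-06) at stage 3 and 0.25 ± 0.09 (1.19 times; edgeR adjusted p = 0.0246) at stage 4. The stage 4 value lost its call without replicate 2 (0.16, edgeR adjusted p = 0.361), without replicate 3 (0.28, edgeR adjusted p = 0.0944), with no filter on low counts (edgeR adjusted p = 0.0941) and at equal depth (edgeR adjusted p = 0.0757), and the stage 3 value at equal depth (0.31, edgeR adjusted p = 0.197).

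HDR had its lowest and its highest group in seeded berries. Seedless flesh had 237, 253 and 269 CPM at stage 1, 229.9, 237 and 249 CPM at stage 3 and 222, 219 and 201 CPM at stage 4. Seeded flesh had 140.1, 135 and 194 CPM, then 248, 331 and 304 CPM, then 269.7, 259 and 285 CPM. Its lowest group of the 12 was seeded flesh at stage 1, with 156 ± 32.9 CPM (SD, n = 3), and no library of that group reached the next group up. Seedless skin had 357, 305 and 358 CPM, then 300.2, 312 and 347 CPM, then 268, 300.0 and 297 CPM. Seeded skin had 237, 275 and 284 CPM, then 378, 443 and 406 CPM, then 371, 310.1 and 334 CPM. Seeded skin at stage 3 was the highest group, with 409 ± 32.4 CPM, and did not overlap with the group below it. Within a treatment and stage the tissues did not overlap in any of the 6 pairs, and skin exceeded flesh by 0.58 ± 0.08 log2 units (edgeR adjusted p = 4.27e-08), 0.45 ± 0.08 (edgeR adjusted p = 1.6e-06) and 0.37 ± 0.08 (edgeR adjusted p = 5.04e-05) at stages 1, 3 and 4.

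**Figure D2:**
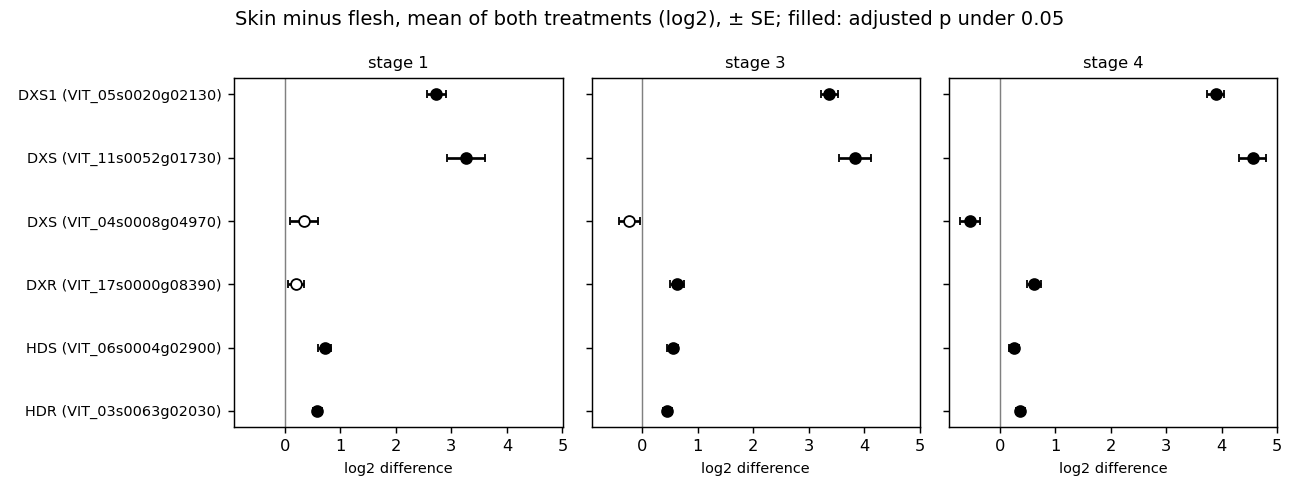
Skin minus flesh in log2 units, averaged over both treatments, at stages 1, 3 and 4. Points are edgeR estimates with SE bars, filled where the adjusted p is under 0.05; the 2 genes DXS1 and VIT_11s0052g01730 lie between 2.73 and 4.56, and the other 4 genes between -0.53 and 0.72.

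The tissue difference of DXS1 was larger at stage 4 than at stage 1. The change was 1.16 ± 0.26 log2 units (SE; edgeR adjusted p = 0.00136), and that of HDS was -0.46 ± 0.15 (edgeR adjusted p = 0.0403), so 2 of the 6 genes were called among 9.64% of all genes. This test was added after the data were seen. The change of VIT_11s0052g01730 was 1.29, larger than that of DXS1, but was not called (edgeR adjusted p = 0.136). Among 9 alternatives it was called in 2, by DESeq2 (adjusted p = 0.0479) and without replicate 2 of every group (edgeR adjusted p = 0.0363). The DXS1 value was 0.62 without replicate 3 of every group (edgeR adjusted p = 0.359). It was 0.54 at equal depth, in a single random draw of reads (edgeR adjusted p = 0.568). The HDS call was lost without any one replicate number (edgeR adjusted p = 0.0674, 0.101 and 0.426), with no filter (edgeR adjusted p = 0.0924) and at equal depth (-0.21, edgeR adjusted p = 0.719). VIT_04s0008g04970, at -0.88 ± 0.30, lay just outside the threshold (edgeR adjusted p = 0.0539) and inside it in 6 of 9 alternatives, whose adjusted p ran from 0.0167 to 0.857. Among them were a replicate block (edgeR adjusted p = 0.0485), a block within treatment and stage (edgeR adjusted p = 0.0274) and DESeq2 (adjusted p = 0.0348). From stage 1 to 3 and from stage 3 to 4, 0 of the 6 genes were called by edgeR or DESeq2, with 2 at an unadjusted p under 0.05 in each, against 0.687% and 2.94% of all genes called by edgeR.

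The study's main contrast set seedless against seeded berries. Over 6 such comparisons and 6 genes, 9 of 36 results were called, 6 with more and 3 with less transcript in seedless berries, against 11% of all gene tests. Of these, 8 of 18 were in skin and 1 of 18 in flesh, where 11.4% and 10.5% of all gene tests were called, and the split between the tissues was not tested as such. DXS1, VIT_11s0052g01730 and HDR had called differences in both directions at different stages, whereas VIT_04s0008g04970 and HDS had no call in any of the 6 comparisons. Replicates are not stated to be separate vines or berries, so the p-values measure the spread between these libraries, which may be technical.

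In skin at stage 1, 4 of the 6 genes were higher in seedless berries, against 20.2% of the 14193 tested genes called in either direction and 10.4% called higher. The median difference of the 6 genes was 0.45 log2 units, against 0.019 over all tested genes. DXS1 had 88.8 ± 13.3 CPM in skin of seedless berries and 55.7 ± 11.05 CPM in that of seeded ones (SD, n = 3), with no overlap, a difference of 0.70 ± 0.15 log2 units (SE; edgeR adjusted p = 0.000629). VIT_11s0052g01730 had 32.3 ± 8.87 against 16.3 ± 3.90 CPM, with no overlap and a difference of 0.96 ± 0.24 (edgeR adjusted p = 0.00352). Both are DXS genes, and the third DXS gene was not called. DXR, at 36.3 ± 4.16 against 25.4 ± 4.69 CPM, was higher by 0.54 ± 0.19 (edgeR adjusted p = 0.0334), and HDR, at 340.2 ± 30.3 against 265 ± 25.0 CPM, by 0.36 ± 0.10 (edgeR adjusted p = 0.0114). HDS had 66.7 ± 1.23 against 51.3 ± 3.35 CPM without overlap, but its difference of 0.36 ± 0.14 did not pass the threshold (edgeR adjusted p = 0.063). VIT_04s0008g04970 differed by -0.0028 ± 0.34 (edgeR adjusted p = 0.997), with a 95% interval of the difference from -0.67 to 0.66.

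The depth of the seeded stage 1 libraries moves with this comparison. At an equal depth of 608901 counts in every library, which lowers the reads tested, the DXS1 difference in skin at stage 1 was 0.34 log2 units (edgeR adjusted p = 0.32), that of VIT_11s0052g01730 0.93 (edgeR adjusted p = 0.0611), that of DXR 0.57 (edgeR adjusted p = 0.22) and that of HDR 0.17 (edgeR adjusted p = 0.461). The part of depth in these results beyond that was not tested. Every equal-depth value in this report comes from a single random draw of reads, so it also carries the sampling error of that draw. Without replicate 1 of every group the DXS1 call was lost (0.48, edgeR adjusted p = 0.0681), and without replicate 2 that of VIT_11s0052g01730 (0.76, edgeR adjusted p = 0.0741). The DXR call was lost in 12 of 27 alternatives. Among them were DESeq2 (adjusted p = 0.0519), DESeq2's size factors in edgeR (edgeR adjusted p = 0.051), no filter (edgeR adjusted p = 0.0565) and a fit of only the 6 libraries (edgeR adjusted p = 0.108). So were fits without any one replicate number of every group (edgeR adjusted p = 0.152, 0.0992 and 0.177). Single libraries that ended it were replicates 2 or 3 of seedless skin at stage 1 (edgeR adjusted p = 0.136 and 0.0552) and replicates 1 or 3 of seeded skin at stage 1 (edgeR adjusted p = 0.163 and 0.1). The HDR call was lost in 6 of 27 alternatives, among them without replicate 1 or 3 of every group (edgeR adjusted p = 0.19 and 0.0711). It was also lost without replicates 1 or 3 of seedless skin (edgeR adjusted p = 0.0517 and 0.0544) or replicate 1 of seeded skin (edgeR adjusted p = 0.0867).

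In skin at stage 3, DXS1 and VIT_11s0052g01730 differed in opposite directions, and the third DXS gene, VIT_04s0008g04970, was not called (0.18 ± 0.30, edgeR adjusted p = 0.784). VIT_11s0052g01730 had 32.9 ± 5.30 CPM in skin of seedless and 11.9 ± 2.66 CPM in skin of seeded berries, 2.75 times higher in seedless berries (1.46 ± 0.21 log2 units, SE; edgeR adjusted p = 5.82e-06). DXS1 had 56.7 ± 5.74 against 85.1 ± 3.58 CPM and was lower in seedless berries (-0.59 ± 0.14, edgeR adjusted p = 0.00276), and HDR had 319.9 ± 24.2 against 409 ± 32.4 CPM (-0.35 ± 0.10, edgeR adjusted p = 0.0147). None of these 3 pairs of groups overlapped. The 3 called genes of 6 stand beside 10.6% of all tested genes, and the median over the 6 genes was -0.12 log2 units, against -0.0035 over all tested genes. At equal depth the VIT_11s0052g01730 call held, and those of DXS1 (-0.46, edgeR adjusted p = 0.23) and HDR (-0.29, edgeR adjusted p = 0.21) were lost. HDR also lost its call without replicates 1 or 2 of seedless skin at stage 3 (edgeR adjusted p = 0.0777 and 0.0612) or replicate 2 of seeded skin (edgeR adjusted p = 0.0996). Without replicate 2 or 3 of every group, HDR (edgeR adjusted p = 0.238 and 0.0577) and DXS1 (edgeR adjusted p = 0.0504 and 0.0615) lost their calls.

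In skin at stage 4, 1 of the 6 genes was called, against 3.48% of all tested genes. This was again VIT_11s0052g01730, now lower in seedless berries, with 41.2 ± 9.50 against 71.2 ± 3.87 CPM and no overlap (-0.80 ± 0.19 log2 units, SE; edgeR adjusted p = 0.0072). Leaving out 1 library of seedless skin at stage 4 ended the call, whether replicate 1 (-0.69, edgeR adjusted p = 0.0779) or replicate 2 (-0.72, edgeR adjusted p = 0.0667). So did leaving out replicate 2 of every group (-0.69, edgeR adjusted p = 0.172) and equal depth (-0.68, edgeR adjusted p = 0.151). DXS1 differed by 0.13 ± 0.13 (edgeR adjusted p = 0.7), and HDR by -0.23 ± 0.10 without overlap (edgeR adjusted p = 0.221). The median over the 6 genes was -0.10 log2 units, against -0.0072 over all tested genes.

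In flesh the 1 called difference was in HDR. At stage 1 HDR had 253 ± 16.04 CPM where seedless and 156 ± 32.9 CPM where seeded, with no overlap, a difference of 0.68 ± 0.13 log2 units (SE; 1.60 times; edgeR adjusted p = 0.000221) that kept its call in each alternative run. This was 1 gene of 6, against 17.1% of the 13639 genes tested in flesh. At stages 3 and 4, 0 of the 6 genes were called by edgeR or DESeq2, with 1 at an unadjusted p under 0.05 at each stage, against 10.7% and 3.7% of all genes called by edgeR. That 1 gene was HDR at both stages, at -0.29 ± 0.12 (edgeR adjusted p = 0.106) and -0.33 ± 0.12 (edgeR adjusted p = 0.118). The stage 3 value passed the threshold without replicate 1 of seeded flesh at stage 3 (edgeR adjusted p = 0.0433) and at equal depth (-0.47, edgeR adjusted p = 0.045). At stages 1, 3 and 4 the median over the 6 genes was 0.26, -0.048 and -0.28 log2 units, against 0.049, 0.011 and -0.0023 over all tested genes. For VIT_11s0052g01730 the 95% interval of the flesh difference at stage 1 ran from -2.38 to 1.23 log2 units, so differences of several times were not detectable at these read numbers.

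**Figure D3:**
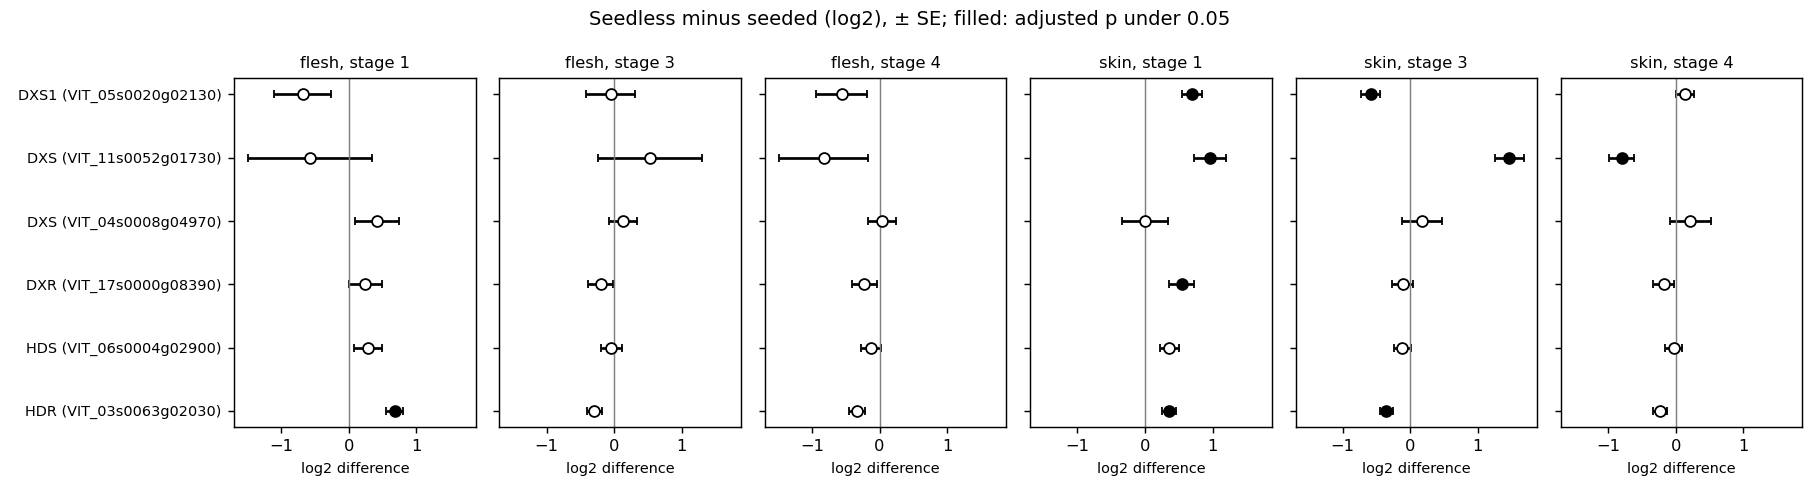
Seedless minus seeded in log2 units for each gene, tissue and stage. Points are edgeR estimates with SE bars, filled where the adjusted p is under 0.05; 1 point is filled in the 3 flesh panels and 8 in the 3 skin panels, with VIT_11s0052g01730 at 0.96, 1.46 and -0.80 across skin stages 1, 3 and 4.

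Changes between stages were then followed within each treatment. In all, 10 of 48 results over 8 steps were called, 8 rises and 2 falls, close to the 17.8% of all gene tests, and the largest was the rise of VIT_11s0052g01730 in seeded skin from stage 3 to 4. VIT_04s0008g04970 had no call in any of the 8 steps. The seeded stage 1 libraries enter both the seeded steps and the treatment comparison at stage 1, and the stage 3 libraries enter both steps of their group, so these values share samples.

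In seeded skin from stage 1 to 3, DXS1 rose by 0.64 ± 0.15 on the log2 scale (SE; edgeR adjusted p = 0.00158), DXR by 0.54 ± 0.18 (edgeR adjusted p = 0.0299) and HDR by 0.62 ± 0.10 (edgeR adjusted p = 1.82e-05). These 3 genes of 6, without overlap between the stages, stand beside 21.7% of all tested genes called in either direction and 10.4% called higher, and the median over the 6 genes was 0.40, against 0.037 over all tested genes. Their levels at stage 3 were 85.1 ± 3.58 CPM for DXS1, 36.1 ± 1.28 CPM for DXR and 409 ± 32.4 CPM for HDR. VIT_11s0052g01730 was at 16.3 ± 3.90 CPM at stage 1 and 11.9 ± 2.66 CPM at stage 3, with overlap (-0.46 ± 0.26, edgeR adjusted p = 0.219). At equal depth the HDR call held, while the DXS1 value was 0.26 (edgeR adjusted p = 0.468) and the DXR value 0.47 (edgeR adjusted p = 0.332). The DXR call was also lost without replicates 1 or 3 of seeded skin at stage 1 (edgeR adjusted p = 0.154 and 0.0922) or replicates 1 or 2 at stage 3 (edgeR adjusted p = 0.0517 and 0.0763). Leaving out any one replicate number of every group ended it too (edgeR adjusted p = 0.193, 0.0641 and 0.162).

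From stage 3 to 4 in seeded skin, VIT_11s0052g01730 rose from 11.9 ± 2.66 to 71.2 ± 3.87 CPM, a change of 2.59 ± 0.21 log2 units (SE; 6.004 times; edgeR adjusted p = 3.47e-12). Every stage 4 library lay above every stage 3 library by several times, and the call held in each alternative run. HDR fell by 0.27 ± 0.10 (log2 change -0.27, edgeR adjusted p = 0.0331), from 409 ± 32.4 to 338 ± 30.6 CPM. DXS1, at 85.1 ± 3.58 and 73.4 ± 8.996 CPM with overlap, had a change of -0.20 ± 0.13 (edgeR adjusted p = 0.27). The 2 called genes of 6 compare with 31.2% of all tested genes, and the medians were 0.081 for the 6 genes and -0.011 for all tested genes. The HDR call was lost without replicates 2 or 3 at stage 3 (edgeR adjusted p = 0.162 and 0.0632), without replicates 2 or 3 at stage 4 (edgeR adjusted p = 0.161 and 0.0905) and at equal depth (edgeR adjusted p = 0.111). It was also lost without replicate 2 or 3 of every group (edgeR adjusted p = 0.436 and 0.153).

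In seedless skin DXS1 alone was called, with a dip at stage 3. It fell by 0.65 ± 0.14 log2 units (log2 change -0.65, SE; edgeR adjusted p = 0.00167) from 88.8 ± 13.3 CPM at stage 1 to 56.7 ± 5.74 CPM at stage 3, and rose by 0.52 ± 0.14 (edgeR adjusted p = 0.00668) to 81.1 ± 6.79 CPM at stage 4. Stage 3 libraries did not overlap with either neighbouring stage. The call of 1 gene of 6 compares with 6.14% of all tested genes from stage 1 to 3 and 13.3% from stage 3 to 4. Medians were -0.10 and 0.24 over the 6 genes, against 0.0091 and 0.00041 over all tested genes. The fall and the rise lost their calls at equal depth (edgeR adjusted p = 0.179 and 0.267), and the rise also without replicate 3 of every group (0.41, edgeR adjusted p = 0.177). VIT_11s0052g01730, which rose 6.004 times in seeded skin from stage 3 to 4, changed by 0.32 ± 0.19 in seedless skin over that step (edgeR adjusted p = 0.298). HDS was also lowest at stage 3 in seedless skin, at 66.7, 57.6 and 71.1 CPM, without overlap at either step. Its changes of -0.21 ± 0.13 and 0.30 ± 0.12 were not called (edgeR adjusted p = 0.406 and 0.11). The DXR means were 36.3, 33.4 and 37.8 CPM, again lowest at stage 3 and without a call (edgeR adjusted p = 0.785 and 0.538).

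In flesh, HDS rose from stage 3 to 4 in both treatments. The change was 0.49 ± 0.15 log2 units (SE; edgeR adjusted p = 0.0188) in seedless flesh, from 40.3 ± 3.46 to 57.4 ± 4.98 CPM, and 0.58 ± 0.16 (edgeR adjusted p = 0.00393) in seeded flesh, from 42.1 ± 5.17 to 63.1 ± 4.17 CPM. The stages did not overlap in either treatment. In each case this was 1 gene of 6, against 14.5% of all tested genes in seedless and 31.7% in seeded flesh, and the medians were 0.12 and 0.26 over the 6 genes, against -0.0058 and -0.010 over all. The seedless call was lost without replicates 1 or 3 of seedless flesh at stage 3 (edgeR adjusted p = 0.095 and 0.0534) or replicate 1 at stage 4 (edgeR adjusted p = 0.0994). It was also lost without any one replicate number of every group (edgeR adjusted p = 0.188, 0.0512 and 0.111). Both calls were lost at equal depth (edgeR adjusted p = 0.534 and 0.357). The seeded call was lost without replicate 3 of every group (edgeR adjusted p = 0.0688). In skin, HDS also moved up over this step, by 0.30 ± 0.12 in seedless and 0.21 ± 0.13 in seeded berries. Neither skin change was called (edgeR adjusted p = 0.11 and 0.207). The skin minus flesh difference of HDS had no called change from stage 3 to 4 (-0.29, edgeR adjusted p = 0.326), so the rise was not shown to be particular to flesh.

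HDR rose in seeded flesh from stage 1 to 3, from 156 ± 32.9 to 294 ± 42.0 CPM. The change of 0.89 ± 0.13 log2 units (SE; 1.86 times; edgeR adjusted p = 2.77e-06) held in each alternative run, and it was the 1 called gene of 6 beside 17.7% of all tested genes. In seedless flesh over the same step 0 of the 6 genes were called by edgeR or DESeq2, with 1 at an unadjusted p under 0.05, against 5.78% of all genes called by edgeR. HDR was at 253 ± 16.04 and 239 ± 9.57 CPM there, a change of -0.078 ± 0.12 (edgeR adjusted p = 0.812). Medians over the 6 genes were 0.19 in seeded and -0.13 in seedless flesh, against 0.053 and 0.0085 over all tested genes. DXS1 in seeded flesh moved from 12.6 ± 3.90 to 6.85 ± 0.0282 CPM, and its change of -0.94 ± 0.44 was not called (edgeR adjusted p = 0.132).

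**Figure D4:**
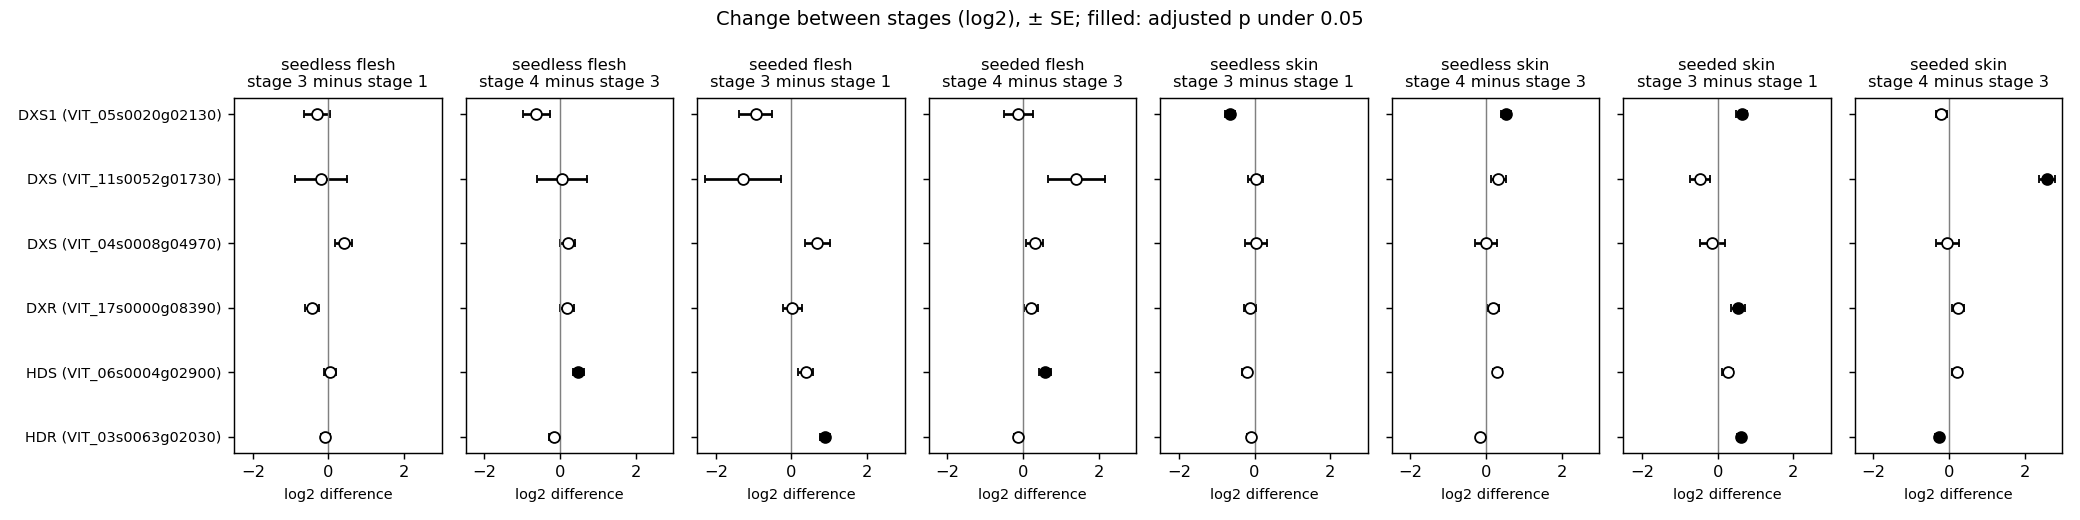
Change between consecutive sampled stages in log2 units for each gene, treatment and tissue. Points are edgeR estimates with SE bars, filled where the adjusted p is under 0.05; VIT_11s0052g01730 stands at 2.59 in seeded skin from stage 3 to 4, and DXS1 lies at -0.65 in seedless and 0.64 in seeded skin from stage 1 to 3.

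Whether the treatment difference itself changed between stages or tissues was tested as a difference of differences. In all, 10 of 54 results were called, 2 positive and 8 negative, against 6.31% of all gene tests. These were 7 of 18 between stages in skin, 2 of 18 between stages in flesh and 1 of 18 between the tissues. The shares over all gene tests were 10.2%, 8.1% and 0.919%. The stage spans of a tissue share libraries, so the same shift of a gene can be counted more than once. In skin from stage 1 to 3 the seedless minus seeded difference of DXS1 fell by 1.29 ± 0.20 log2 units (change -1.29, SE; edgeR adjusted p = 3.32e-05) and that of HDR by 0.71 ± 0.14 (change -0.71, edgeR adjusted p = 0.00101). From stage 3 to 4 the difference of DXS1 rose by 0.72 ± 0.19 (edgeR adjusted p = 0.0134) and that of VIT_11s0052g01730 fell by 2.26 ± 0.28 (change -2.26, edgeR adjusted p = 5.31e-07). These calls were 2 of 6 genes in each step, against 7.86% and 7.5% of all tested genes. The medians over the 6 genes were -0.57 and 0.065, against -0.045 and 0.0014 over all tested genes. Without any one replicate number of every group, the DXS1 change from stage 3 to 4 was not called (edgeR adjusted p = 0.0505, 0.0545 and 0.195). At equal depth the calls of DXS1 from stage 1 to 3 (-0.80, edgeR adjusted p = 0.13), of HDR (-0.46, edgeR adjusted p = 0.175) and of DXS1 from stage 3 to 4 (edgeR adjusted p = 0.398) were lost.

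Across the whole span from stage 1 to 4 in skin, the seedless minus seeded difference fell in 3 of the 6 genes, against 15.4% of all tested genes called in either direction and 8.12% called lower. VIT_11s0052g01730 changed by -1.76 ± 0.31 log2 units (SE; edgeR adjusted p = 6.14e-05), HDR by -0.59 ± 0.14 (edgeR adjusted p = 0.00345) and DXR by -0.72 ± 0.24 (edgeR adjusted p = 0.0378). DXS1 changed by -0.57 ± 0.20 and lay just outside the threshold (edgeR adjusted p = 0.0502). It passed without replicate 2 of seeded skin at stage 1 (-0.71, edgeR adjusted p = 0.0148) or without any of 3 other single libraries (edgeR adjusted p of at most 0.0475). Of 26 alternatives by edgeR or DESeq2, 5 passed. The DXS1 value ran from -0.71 to -0.25 over them, with an adjusted p of up to 0.682. The DXR call was lost without replicates 2 or 3 of seedless skin at stage 1 (edgeR adjusted p = 0.104 and 0.0527), replicate 1 of seedless skin at stage 4 (edgeR adjusted p = 0.0945), replicates 1 or 3 of seeded skin at stage 1 (edgeR adjusted p = 0.117 and 0.08) or replicate 1 of seeded skin at stage 4 (edgeR adjusted p = 0.0999). It was also lost without any one replicate number of every group (edgeR adjusted p = 0.316, 0.0923 and 0.118). DESeq2's size factors in edgeR (edgeR adjusted p = 0.0505) and no filter (edgeR adjusted p = 0.0716) ended it too. HDR lost its call without replicate 1 of every group (-0.35, edgeR adjusted p = 0.175), and DXR and HDR at equal depth (edgeR adjusted p = 0.274 and 0.241). The median over the 6 genes was -0.58, against -0.028 over all tested genes.

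In flesh the treatment difference of HDR fell by 0.97 ± 0.17 log2 units from stage 1 to 3 (change -0.97, SE; edgeR adjusted p = 0.000259) and by 1.01 ± 0.17 from stage 1 to 4 (change -1.01, edgeR adjusted p = 9.29e-05). This was 1 gene of 6 in each, against 8.03% and 12.2% of all tested genes, and it held in each alternative run. From stage 3 to 4 in flesh 0 of the 6 genes were called by edgeR, with 0 at an unadjusted p under 0.05, against 4.07% of all genes. DESeq2 called 0 of the 5 genes to which it gave an adjusted p. Set between the tissues at stage 1, seedless minus seeded of DXS1 was -0.68 ± 0.42 in flesh (not called, edgeR adjusted p = 0.287) and 0.70 ± 0.15 in skin, opposite in sign. Those 2 values come from the separate tissue fits. In the fit of all 36 libraries, skin minus flesh of the treatment difference was 1.43 ± 0.40 (edgeR adjusted p = 0.0392), 1 gene of 6 against 2.18% of all tested genes. That call was lost without any one replicate number of every group (edgeR adjusted p = 0.0688, 0.152 and 0.394) and at equal depth (edgeR adjusted p = 0.355). At stages 3 and 4, 0 of the 6 genes were called in this test by edgeR or DESeq2, with 0 and 1 at an unadjusted p under 0.05, against 0.445% and 0.128% of all genes called by edgeR.

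The 6 genes did not share one profile over the groups. Over the 12 group means of log2(CPM + 1), DXS1 and VIT_11s0052g01730 correlated at r = 0.93, but at 0.06 over the 6 flesh groups and 0.07 over the 6 skin groups. DXR and HDS correlated at 0.81 over the 12 groups, 0.47 in flesh and 0.94 in skin. VIT_04s0008g04970 correlated with DXS1 at -0.93 in flesh and -0.27 in skin. The group means share library depth, tissue and scaling, and these coefficients are descriptions of 12 or 6 points. Flesh libraries held 0 to 21 reads of VIT_11s0052g01730 and 6 to 53 of DXS1, so the flesh coefficients of these genes are weakly resolved.

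**Figure D5:**
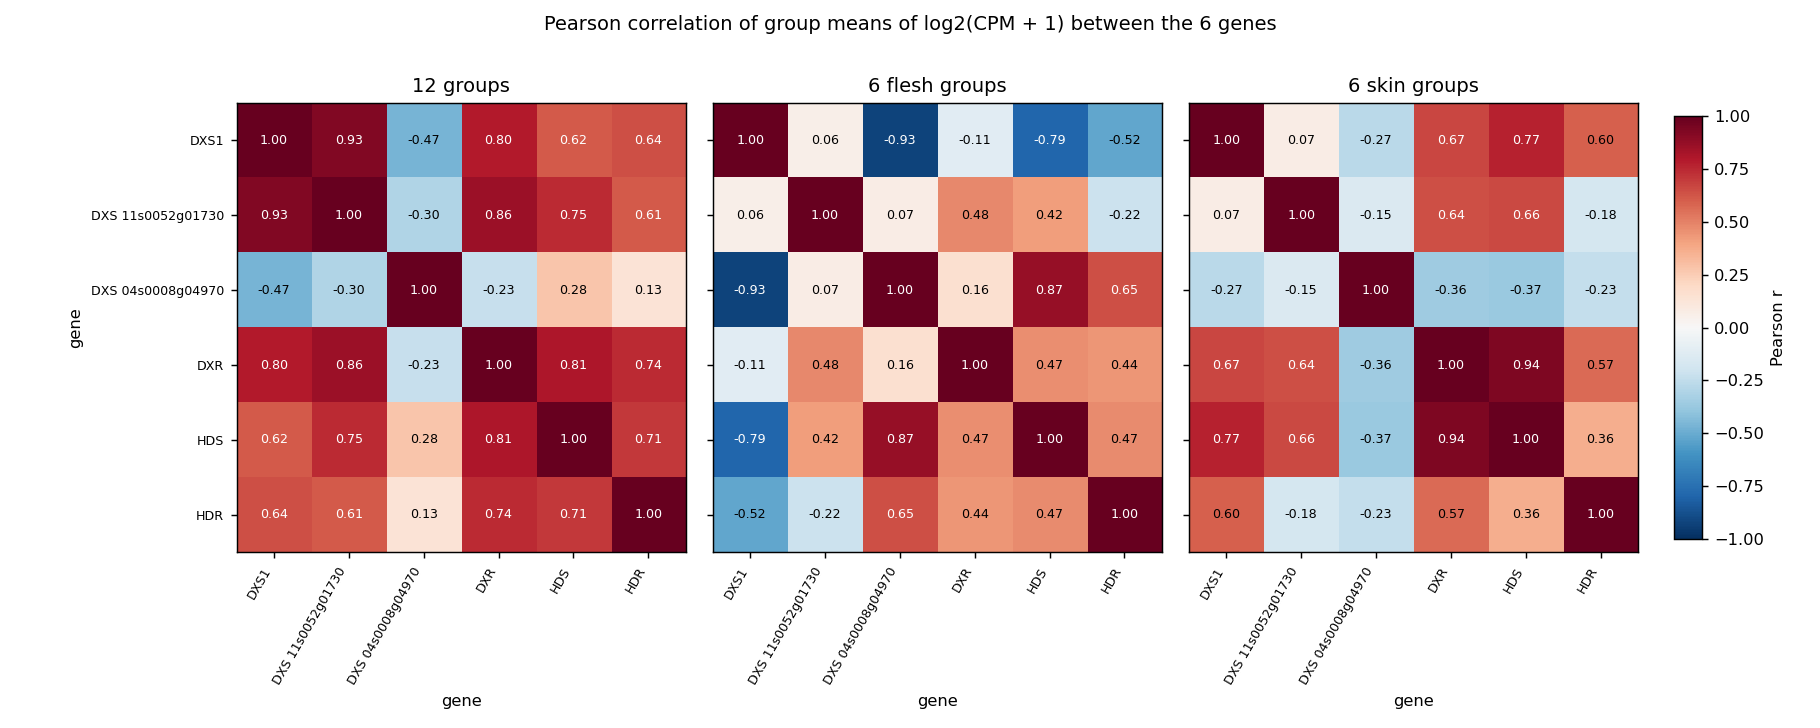
Pearson correlation between the 6 genes over group means of log2(CPM + 1), for all 12 groups, the 6 flesh groups and the 6 skin groups. Red is positive and blue negative; the DXS1 and VIT_11s0052g01730 cell reads 0.93 over 12 groups and 0.06 and 0.07 within the tissues.

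Genes with the profile most like each of the 6 were found among the 11346 genes whose mean level reached 5 CPM, by Pearson's r over the same 12 group means. VIT_14s0108g01020 (r = 0.996) and VIT_10s0003g01640 (0.992) were most like DXS1, and their group means were highest in seedless skin at stage 1, where DXS1 was highest too. VIT_06s0004g08250 and VIT_10s0003g04940 were most like VIT_11s0052g01730 (0.979 for both) and peaked in seeded skin at stage 4, at 45.0 and 95.3 CPM. The closest genes to VIT_04s0008g04970 were VIT_07s0005g03110 (0.953) and VIT_02s0025g00640 (0.932), both highest in flesh at stage 4. For DXR they were VIT_09s0054g01080 (0.948) and VIT_19s0085g01190 (0.947), and for HDS VIT_16s0039g01820 (0.968) and VIT_04s0008g02740 (0.962). HDR was followed most closely by VIT_13s0019g01610 (0.960) and VIT_11s0016g00280 (0.954), both highest in seeded skin at stage 3. The 12 points share libraries and depth, and the count table names none of these genes. They also span both tissues, so a high r can reflect the difference between skin and flesh. For these genes no r was taken within a tissue. An r does not compare sizes of change either. Group means ran from 19.9 to 43.6 CPM for VIT_10s0003g01640 and from 4.40 to 88.8 CPM for DXS1.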

How the data were processed

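The authors deposited 1 table of raw read counts per gene and library, as whole numbers that were not normalized. Per the submitters' processing notes, fastp 0.20.0, HISAT2 2.2.1 and featureCounts were used. The sources used here give no build, annotation, strand setting or handling of multiply mapped reads, so reads of near-identical or overlapping genes may be split between copies. Every pair of replicate libraries differed by at least 3.45 times the variance of counting alone, so all 36 were kept as separate samples.

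Tests used edgeR 4.0.16 in R 4.3.3 (filterByExpr with a minimum count of 10, TMM, the quasi-likelihood F-test with robust estimates). P-values were adjusted by Benjamini-Hochberg across the genes tested in each contrast, and called under 0.05. Flesh and skin were fitted separately with 18 libraries each for treatment and stage contrasts, and all 36 together for tissue contrasts. All 6 genes passed the filter in each fit. An SE is the size of the log2 difference from edgeR's unshrunk coefficients over the square root of F. The printed log2 differences are edgeR's shrunk values, and the 95% intervals join them with that SE. Alternatives were DESeq2 1.42.0, DESeq2's size factors in edgeR, no filter, thinning, a replicate block, smaller fits and leaving out libraries. Thinning took 608901 counts per library without replacement, in a single random draw.

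The 6 genes and the gene lists were chosen with earlier results of these data known. The 2 genes named as most like each gene had the highest r. Lists of other MEP pathway, prenyl diphosphate, mevalonate, skin, seed and plastid products have no result, since no identifier could be tied to them. No sequence was used.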

Additional observations from a re-analysis of the deposited data

Results flagged for a closer look

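Each of the following 12 results was marked because the same contrast differed between stages or tissues by a tested difference, with edgeR's quasi-likelihood test and adjustment over all genes.

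The seedless minus seeded difference of HDR (VIT_03s0063g02030) moved from stage 1 to 3 by -0.97 log2 units in flesh and by -0.71 in skin, and from stage 1 to 4 by -1.01 in flesh and by -0.59 in skin. In seedless berries it was higher at stage 1 in both tissues, and lower at stage 3 in skin. For DXS1 (VIT_05s0020g02130) in skin the difference moved by -1.29 from stage 1 to 3 and by 0.72 from stage 3 to 4. At stage 1 it was -0.68 in flesh and 0.70 in skin in the separate tissue fits. In the fit of all 36 libraries its skin minus flesh value was 1.43, a call lost without any one replicate number and at equal depth. For VIT_11s0052g01730 in skin it moved by -2.26 from stage 3 to 4 and by -1.76 from stage 1 to 4. DXR (VIT_17s0000g08390) in skin moved by -0.72 from stage 1 to 4.

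The skin minus flesh difference changed from stage 1 to 4 by 1.16 log2 units in DXS1 and by -0.46 in HDS (VIT_06s0004g02900). Seeded stage 1 libraries, the shallowest on average, enter every contrast here that starts at stage 1, and their depth moves with these results. At equal depth the HDR changes in flesh were -1.04 and -0.89 (edgeR adjusted p = 0.0011 and 0.00486), and those of VIT_11s0052g01730 were -1.85 from stage 3 to 4 and -1.61 from stage 1 to 4 (edgeR adjusted p = 0.00289 and 0.00676). The other 8 results were not called at equal depth. The part of depth beyond this was not tested.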

How the results depend on the processing

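In 67 alternative fits 0 calls reversed, and 21 of the 46 called results kept their call in each. At equal depth, where fewer reads are tested, 3 treatment, 3 stage, 4 difference-of-differences and 0 tissue-change results were called, against 9, 10, 10 and 2. Leaving out a library or a replicate number gave 4 to 10 treatment, 5 to 11 stage and 6 to 11 difference-of-differences calls. Leaving out a replicate number gave 13 to 15 tissue and 0 to 2 tissue-change calls. Single libraries were not left out of the fit of all 36. DESeq2 called 4 tissue changes. A replicate block gave 9 treatment, 10 stage, 15 tissue, 11 difference-of-differences and 3 tissue-change calls. The labels do not say what a number marks: correlations of same-numbered deviations ran from -0.112 to 0.212 between treatments, where 11 of 18 were the best match, and from 0.069 to 0.290 between tissues, where 18 of 18 were, a hint from the data and not the design. The main tissue tests treated skin and flesh libraries as unpaired. With a replicate block within treatment and stage, the 15 tissue calls all held. Depth limits the seeded stage 1 groups most.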
